A study of Mus musculus with 6 samples.

Results

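Transcripts of 10 genes that are best known from lung epithelium were followed over 6 Clariom D Mouse arrays, 3 of platelets from blood and 3 of bone marrow cells labelled megakaryocyte progenitors. The genes were Sftpc, Sftpb, Sftpa1, Sftpd, Scgb1a1, Scgb3a1, Scgb3a2, Ager, Cldn18 and Napsa. They were picked by name, with the differences between arrays of mice with extracellular vesicles (EVs) and PBS arrays in view, and each was read from the probe annotated with its symbol. Each of the 10 had 1 such probe, out of 30142 genes on probes that named 1 gene. In each cell type, 1 array carried the label control (PBS), 1 the label CTC41-EVs and 1 the label CTC41.5G-EVs. EVs is the usual abbreviation of membrane particles that cells release. What CTC41 and CTC41.5G stand for, and the strain, age, number of mice, dose and time, were not stated in the labels. The RNA of a group's mice was combined into a pool, so every group was 1 array and no comparison between treatments within a cell type had replicates. Per the labels' protocols, blood was drawn by cardiac puncture, and pools were used directly or after magnetic depletion of leukocytes and erythrocytes, without stating which.

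Pulmonary surfactant is a film of lipid and protein that keeps the air spaces of the lung from collapsing. Alveolar type II cells make its lipid and its 4 surfactant proteins. The hydrophobic proteins B and C insert into the film, and the collectins A and D bind microbes. Club cells and other secretory cells of the airway lining release secretoglobins, small proteins of the mucosal fluid. Platelets have no nucleus and carry RNA inherited from megakaryocytes. Megakaryocytes do occur in the capillaries of the lung.

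Promoter windows in the RefSeq table (GRCm38.p6) covered 5 of the 10 genes, Sftpb, Sftpa1, Scgb3a1, Ager and Cldn18. Those of Scgb3a1, Sftpa1 and Sftpb are shown because Scgb3a1 differed past 1.5-fold between platelet arrays, while Sftpa1 and Sftpb did not. Each is the 250 bases before the annotated start, 5′ to 3′ on the strand of the gene. Capitals mark, on either strand, CAAGTG or CTCAAG, letters found in binding sites of NKX2-1, the regulator of lung epithelial genes, and TGTTTNC, letters found in sites of forkhead factors.
Scgb3a1, chr11:49663345-49663594, plus strand: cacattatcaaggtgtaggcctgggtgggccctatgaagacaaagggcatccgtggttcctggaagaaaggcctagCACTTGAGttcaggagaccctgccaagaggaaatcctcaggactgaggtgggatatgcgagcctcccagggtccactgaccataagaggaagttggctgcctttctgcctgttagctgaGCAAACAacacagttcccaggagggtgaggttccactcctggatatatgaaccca
Sftpa1, chr14:41131538-41131787, plus strand: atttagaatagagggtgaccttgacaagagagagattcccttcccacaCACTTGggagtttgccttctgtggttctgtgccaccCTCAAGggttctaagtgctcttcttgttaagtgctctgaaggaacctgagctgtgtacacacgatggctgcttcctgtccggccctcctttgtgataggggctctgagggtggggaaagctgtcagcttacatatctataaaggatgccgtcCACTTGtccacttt
Sftpb, chr6:72304360-72304609, plus strand: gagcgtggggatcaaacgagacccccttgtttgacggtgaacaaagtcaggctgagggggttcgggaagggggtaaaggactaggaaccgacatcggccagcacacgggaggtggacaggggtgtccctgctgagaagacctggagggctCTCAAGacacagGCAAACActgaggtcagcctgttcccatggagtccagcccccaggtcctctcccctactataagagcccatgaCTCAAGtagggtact
CAAGTG and CTCAAG overlap on the opposite strand in the Scgb3a1 window. Over all 32851 windows of 250 bases in the table, 11.6% held CAAGTG, 13.3% held CTCAAG and 17.8% held TGTTTNC. The matches are descriptions of sequence. Of the covered genes not shown, Ager had no match, and Cldn18, whose EV differences were small, had 5 over its windows, 4 of TGTTTNC and 1 of CAAGTG.

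Sftpc differed most among the 10 genes. Its log2 signal on the platelet arrays was 6.05 with PBS, 7.09 with CTC41-EVs and 7.72 with CTC41.5G-EVs. On the progenitor arrays it was 5.18, 5.09 and 5.02 in the same order. The platelet arrays with EVs thus stood above the platelet PBS array, and all 3 platelet arrays stood above all 3 progenitor arrays. Against PBS in platelets, Sftpc was 2.06-fold higher with CTC41-EVs (log2 difference 1.04) and 3.18-fold higher with CTC41.5G-EVs (1.67). In progenitors the same differences were -0.09 and -0.16. Ranked by the difference in platelets, Sftpc was 3rd of 30142 genes with CTC41.5G-EVs and 36th with CTC41-EVs. These contrasts chose the gene, each is 1 array against 1, and both use the same PBS array. The values are therefore a description with no test.

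**Figure D1:**
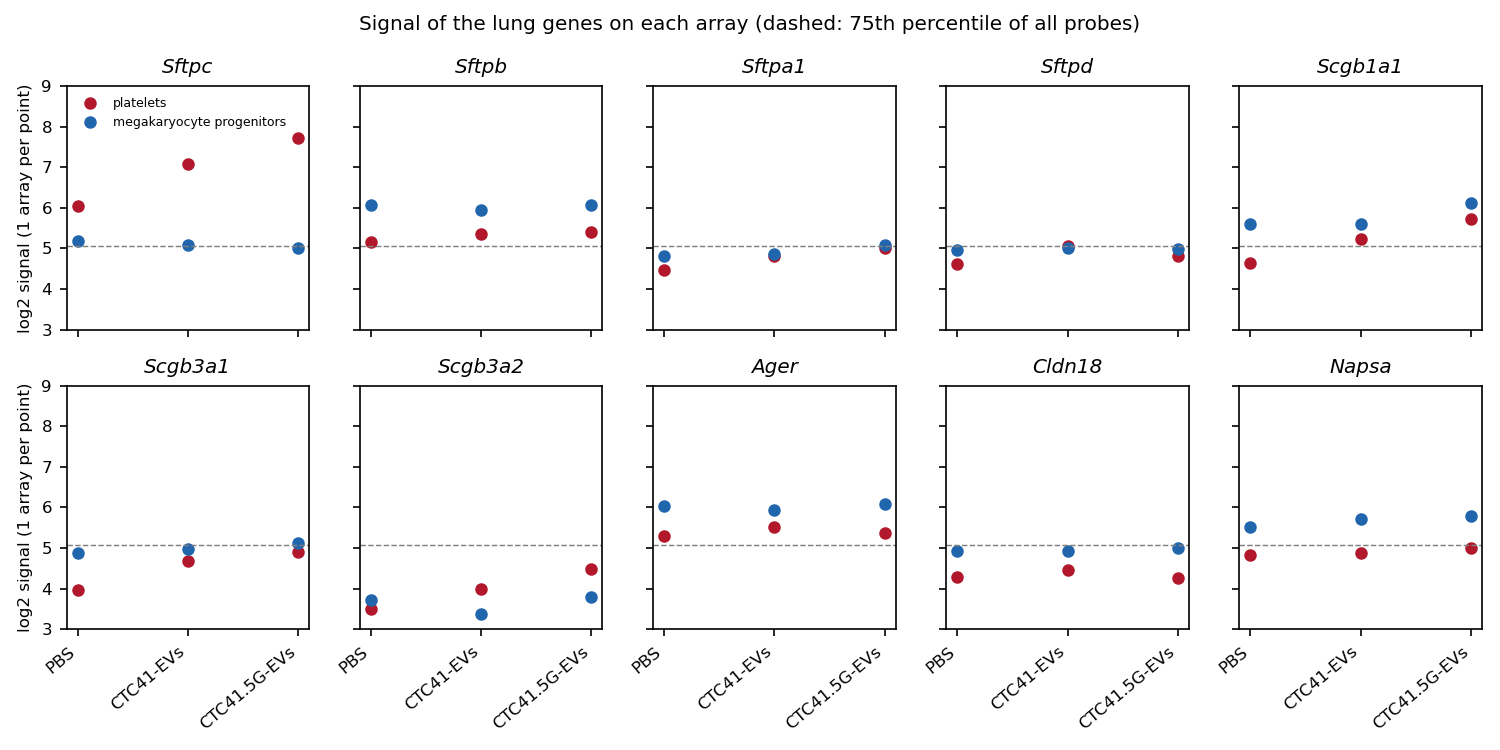
Log2 signal (vertical axis) of each of the 10 lung genes on the PBS, CTC41-EVs and CTC41.5G-EVs arrays (horizontal axis), 1 array per point, red for platelets and blue for megakaryocyte progenitors; the dashed line is the 75th percentile of all probes, 5.07. Sftpc runs from 6.05 to 7.72 in platelets and from 5.02 to 5.18 in progenitors.

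The other surfactant proteins differed by less than 1.5-fold from PBS on every EV array. Sftpb, whose protein packs surfactant lipid into lamellar bodies, gave 5.17 with PBS, 5.36 with CTC41-EVs and 5.41 with CTC41.5G-EVs in platelets; triplets of values below keep this order. On the progenitor arrays it gave 6.08, 5.94 and 6.08, so it was higher there than in platelets on each array. The collectin gene Sftpa1 gave 4.48, 4.81 and 5.00 in platelets and 4.81, 4.87 and 5.08 in progenitors. Sftpa1 was higher on both platelet EV arrays than with PBS, by 0.33 and 0.52. The collectin gene Sftpd gave 4.61, 5.05 and 4.82 in platelets and 4.97, 5.01 and 4.98 in progenitors, and its EV differences in platelets were 0.44 and 0.20. Napsa, an aspartic protease that helps mature surfactant protein B, gave 4.82, 4.89 and 4.99 in platelets and 5.51, 5.71 and 5.79 in progenitors. Its differences from PBS were 0.06 and 0.17 in platelets and 0.20 and 0.28 in progenitors.

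The 3 secretoglobin genes stood higher on both platelet EV arrays. Scgb1a1, the club cell secretory protein, gave 4.64 with PBS, 5.22 with CTC41-EVs and 5.72 with CTC41.5G-EVs in platelets. The differences from PBS were 0.58, which lay just under 1.5-fold, and 1.08 (2.12-fold). In progenitors Scgb1a1 gave 5.59, 5.61 and 6.13, and the CTC41.5G-EVs array stood above PBS by 0.54 there. Scgb3a1, a secretoglobin of the airway and other mucosae, gave 3.96, 4.69 and 4.90 in platelets and 4.88, 4.97 and 5.13 in progenitors. Its platelet differences were 0.73 and 0.94, taken from a PBS value under the median probe level of 4.23, and its progenitor differences 0.09 and 0.25. Scgb3a2, a secretoglobin of airway secretory cells, gave 3.49, 4.0 and 4.49 in platelets and 3.73, 3.38 and 3.79 in progenitors. Its platelet differences were 0.51 and 1.01, but only 1 of its 6 values reached that level. The sizes of the differences of Scgb3a1 and Scgb3a2 are therefore uncertain.

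The genes of alveolar membranes showed small differences. Ager, a receptor concentrated on the base of alveolar type I cells, gave 5.30, 5.51 and 5.38 in platelets and 6.04, 5.94 and 6.09 in progenitors. Cldn18, a tight junction claudin of alveolar epithelium, gave 4.29, 4.46 and 4.27 in platelets and 4.92, 4.93 and 5.00 in progenitors. Ager differed from PBS by 0.21 and 0.08 in platelets, and Cldn18 by 0.17 and -0.02. In progenitors the differences of both genes lay between -0.10 and 0.07.

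Counted over the 10 genes without any floor on signal, 2 were at least 1.5-fold above PBS in platelets with CTC41-EVs, Sftpc and Scgb3a1. Of all genes, 2.0% were past that fold upwards. With CTC41.5G-EVs there were 4, Sftpc and the 3 secretoglobins, where 1.86% of all genes were. None of the 10 was lower past that fold, where 1.74% and 1.64% of all genes were. By sign alone, 10 of 10 stood above PBS with CTC41-EVs and 9 of 10 with CTC41.5G-EVs, beside 52.9% and 52.7% of all genes. The median difference was 0.38 in each comparison, and 0.01 over all genes in each. A floor at the 75th percentile of all probes, 5.07 for the mean of the 3 platelet arrays, left Sftpc, Sftpb, Scgb1a1 and Ager. Of these 4, Sftpc passed with CTC41-EVs (0.449% of all genes at that floor), and Sftpc and Scgb1a1 passed with CTC41.5G-EVs (0.643%). None of the 4 was lower past the fold, where 2.34% and 1.31% of all genes at the floor were. Since the genes were picked on these contrasts, nothing is read from the counts.

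**Figure D2:**
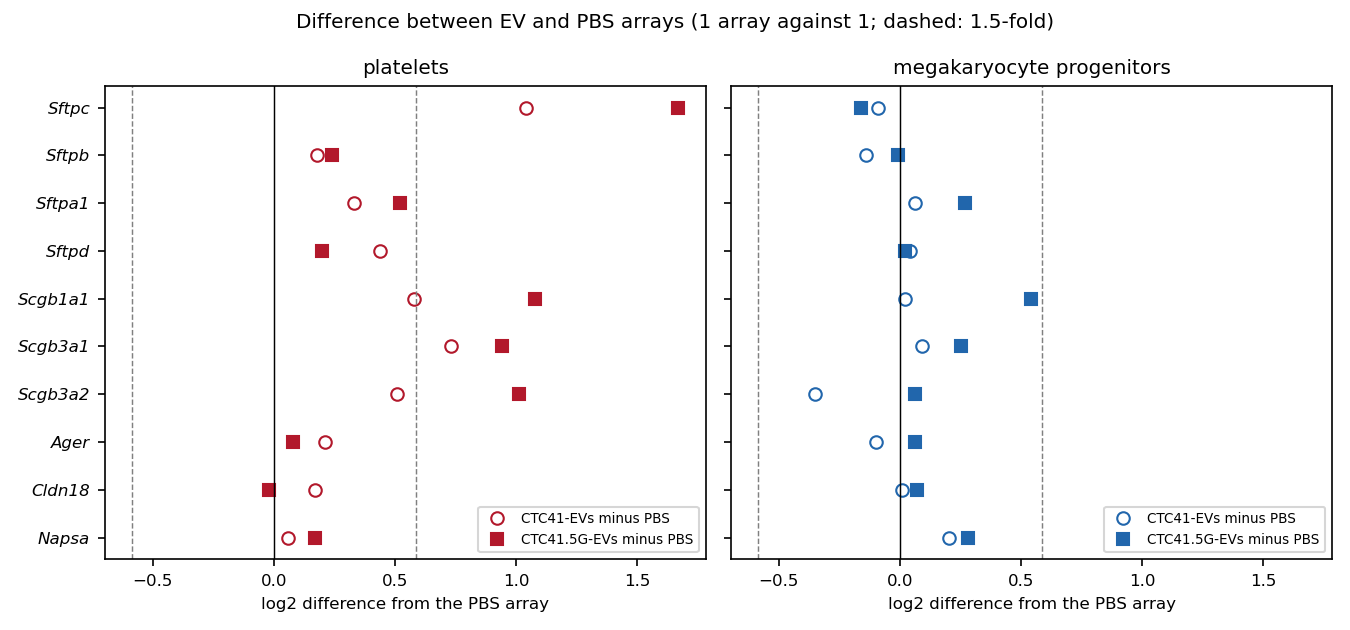
Log2 difference of each EV array from the PBS array of the same cell type (horizontal axis) for the 10 lung genes (vertical axis), open circles for CTC41-EVs and filled squares for CTC41.5G-EVs; dashed lines mark 1.5-fold. In platelets Sftpc lies at 1.04 and 1.67, and in progenitors at -0.09 and -0.16.

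Between the EV arrays of platelets, the CTC41.5G-EVs array stood above the CTC41-EVs array by 0.63 for Sftpc (1.55-fold), 0.50 for Scgb1a1, 0.49 for Scgb3a2 and 0.21 for Scgb3a1. Sftpd, Cldn18 and Ager were lower by the same comparison, at -0.23, -0.19 and -0.13. Sftpc was the 1 gene of 10 past 1.5-fold, where 2.34% of all genes were higher and 2.29% lower past it. At the floor it was 1 of 4, beside 2.79% of all genes higher and 0.885% lower. By sign, 7 of 10 stood higher, and 50% of all genes. After quantile normalization its difference was 0.53, under 1.5-fold.

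In progenitors none of the 10 genes was past 1.5-fold in either direction. The shares of all genes past it upwards were 1.55% with CTC41-EVs, 3.20% with CTC41.5G-EVs and 1.26% between the EV arrays, and downwards 0.435%, 0.853% and 0.713%. At the floor, 5 of the 10 remained and 0 were past it, while 3.09%, 5.47% and 0.608% of all genes there were higher and 0.101%, 0.746% and 0.783% lower. By sign, 6, 8 and 8 of 10 stood higher, beside 52.8%, 69.7% and 69.3% of all genes. The median difference of the 10 genes from PBS was 0.01 with CTC41-EVs and 0.07 with CTC41.5G-EVs, beside 0.01 and 0.09 over all genes. The largest differences from PBS were 0.54 for Scgb1a1 with CTC41.5G-EVs and -0.35 for Scgb3a2 with CTC41-EVs. Whether EV differences of these genes differed between the cell types could not be tested with 1 array a group.

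Other genes of the same lung cells were read from lists. Of 8 other genes of club and airway secretory cells, 3 were past 1.5-fold higher in platelets with CTC41.5G-EVs (1.86% of all genes) and 0 with CTC41-EVs (2.0% of all genes). All 3 lay under the floor, and they are named although the rule for named genes would leave them out, after their values were seen. The list itself was chosen with earlier results of these data known, so nothing is read from these counts. Bpifa1, an abundant secreted protein of the upper airway, gave 3.75 with PBS, 4.04 with CTC41-EVs and 5.86 with CTC41.5G-EVs. Its difference was 2.11 with CTC41.5G-EVs and 0.29 with CTC41-EVs, and its PBS and CTC41-EVs values lay under the median probe level of 4.23, so the size of either is uncertain. Bpifb1, a related airway protein, gave 4.32, 4.30 and 5.01, a difference of 0.68 with CTC41.5G-EVs. Reg3g, an antimicrobial lectin of mucosal epithelium, gave 3.59, 3.80 and 4.24, a difference of 0.65. On the progenitor arrays Bpifa1 stayed between 4.17 and 4.27. Cyp2f2, a cytochrome P450 of club cells, gave 4.41, 4.76 and 4.86 in platelets. Aldh1a1, a retinal dehydrogenase, was lower past 1.5-fold with CTC41-EVs, at 6.94 against 7.53 with PBS. Cbr2, Muc5b and Lypd2 differed from PBS in platelets by -0.43 to -0.01.

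Other alveolar type II genes gave small differences in platelets. Of 12, 0 were past 1.5-fold on either platelet EV array, and their median differences were -0.04 and -0.01. Of all genes, 2.0% and 1.86% were higher past it and 1.74% and 1.64% lower, so a count of 0 is near these shares. Abca3, the transporter that loads lipid into lamellar bodies, gave 5.48, 5.46 and 5.62 in platelets, and the phosphate transporter gene Slc34a2 gave 4.32, 4.27 and 4.53. Lamp3, a membrane protein of lamellar bodies, gave 3.63, 3.61 and 3.51, below 4.23 on each. Nkx2-1 gave 4.88, 4.50 and 4.91, and the lung chemokine gene Cxcl15 gave 3.58, 3.67 and 3.94.

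The wider list of surfactant lipid synthesis and lung transcription factors held 21 genes on the arrays. In platelets 0 of 21 were past 1.5-fold with either EV, with medians of -0.05 and 0.01 and a range from -0.45 to 0.42. That count is near the shares of all genes past it, 2.0% and 1.86% higher and 1.74% and 1.64% lower. The highest was Scd1, a fatty acid desaturase, at 0.42 with CTC41.5G-EVs, and the lowest Gata6, an endodermal transcription factor gene, at -0.45. In progenitors Cebpa, a transcription factor of both myeloid and lung cells, was past 1.5-fold higher with CTC41.5G-EVs (3.20% of all genes), at 6.15 against 5.56. Of 8 other alveolar type I genes, 1 was past the fold in platelets, Pdpn, lower with CTC41.5G-EVs at 4.60 against 5.24. Its platelet mean of 4.94 lay under the floor of 5.07, so the size of this difference is uncertain. Pdpn encodes podoplanin, the ligand of the platelet receptor CLEC-2. Of 7 ciliated cell genes, 0 were past 1.5-fold in platelets, also near the shares above, with medians of -0.10 and -0.07.

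**Figure D3:**
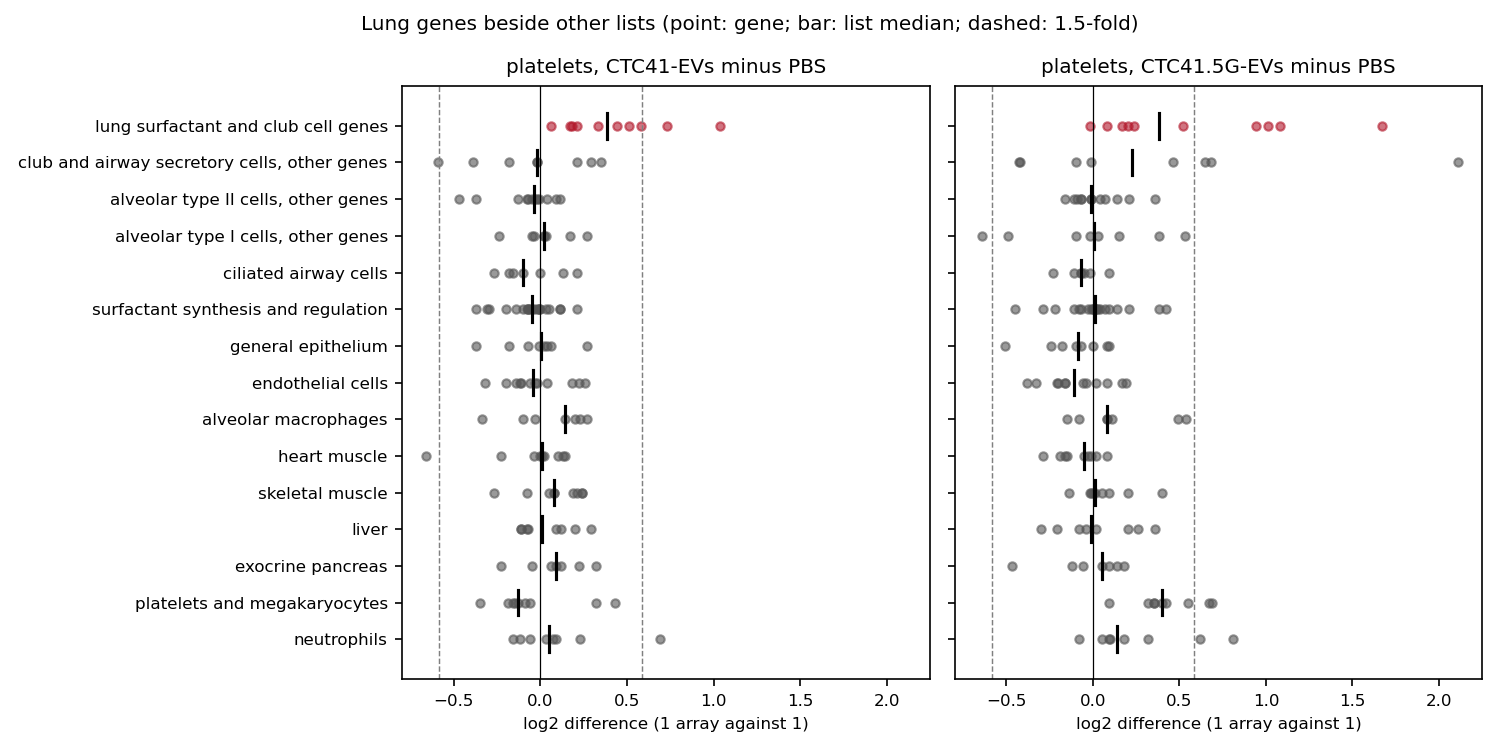
Log2 difference from the platelet PBS array (horizontal axis) for single genes (points) of each list (rows), with CTC41-EVs on the left and CTC41.5G-EVs on the right; vertical bars are list medians and dashed lines mark 1.5-fold. The lung surfactant and club cell genes have a median of 0.38 on both sides, and Bpifa1 is the grey point at 2.11.

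Marker lists of other cells in the chest and blood were set beside these values. In platelets 0 of 12 endothelial, 0 of 7 alveolar macrophage, 0 of 8 general epithelial and 0 of 9 skeletal muscle genes were past 1.5-fold against PBS with either EV. Of all genes, 2.0% and 1.86% were higher past it and 1.74% and 1.64% lower. Counts of 0 or 1 in lists of this size are near these shares, and nothing is read from them. Of 9 heart muscle genes, 1 was past it, Nppa, lower with CTC41-EVs by -0.66, with a platelet mean of 4.89 under the floor of 5.07. Of the 8 general epithelial genes, the adhesion gene Epcam lay under 4.23 on all 6 arrays, while the other 7 were at or above it on all 6, and the keratin gene Krt19 was above 5.07 on all 6. The mean log2 level of the heart muscle list was 4.95, 4.89 and 4.87 on the platelet arrays, and that of the endothelial list 4.80, 4.77 and 4.71. The liver, pancreas, erythroid, B cell, T and NK cell, monocyte, and stem and progenitor lists held 6 to 8 genes each on the arrays, with 0 past the fold against PBS and medians from -0.12 to 0.09. On the CTC41.5G-EVs platelet array, 1 array against 1, all 9 platelet and megakaryocyte markers were above PBS, as were 52.7% of all genes. Their median was 0.40, and Pf4 (0.69) and Ppbp (0.67) were past 1.5-fold, beside 0.643% of all genes at the floor. With CTC41-EVs 2 of these 9 were above PBS and the median was -0.13, which turned to 0.16 after quantile normalization. Of 8 neutrophil genes, Ngp was higher on both platelet EV arrays (0.69 and 0.81) and Ltf, lactoferrin, with CTC41.5G-EVs (0.62). Their platelet means of 4.89 and 4.85 lay under the floor. Of the 3 neutrophil genes at the floor, 0 were past 1.5-fold higher with either EV, near the 0.449% and 0.643% of all genes there. Ngp and Ltf were not among these 3, so nothing is read from that count. The mean level of the neutrophil list was 5.14, 5.24 and 5.40. The part of either list in the lung gene values was not tested. In bulk RNA, fewer cells of a type and less RNA per cell cannot be told apart.

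The cell type labels were checked against marker genes. Of all 30142 genes, 7282 were at 5.07 or above on every platelet array and 9636 on every progenitor array. By the limma rule given below, 16.2% of all genes tested were called higher and 25.7% lower in platelets. All 9 platelet markers were at 5.07 or above on every platelet array, and 8 of 9 were so on every progenitor array, Clec1b being the exception. The 9 markers were nonetheless all called higher in platelets by limma, by a median of 4.33, and several were just above the floor in progenitors, such as Tubb1 at 5.31 to 5.36. Of 6 erythroid markers, 5 were at the floor on every platelet array, and 4 of 5 tested were called higher in platelets, with Alas2, an enzyme of erythroid heme synthesis, at 9.82 to 9.88. All 8 neutrophil markers were at 5.07 or above on every progenitor array, and all 8 were called lower in platelets, by a median of -2.28. Their mean level on the progenitor arrays was 7.28, 7.44 and 7.49. That of the platelet and megakaryocyte markers there was 5.60, 5.71 and 5.79. Of 8 stem and progenitor cell markers, 2 were called lower in platelets, 1 was called higher and 5 were not called. The name megakaryocyte progenitors is that of the labels, and the share of neutrophil precursors in these cells was not tested. The median signal over all probes was at most 4.05 on platelet arrays and at least 4.38 on progenitor arrays, and arrays of a cell type correlated at 0.961 to 0.983 across probes.

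Platelets and progenitors were compared over the 3 treatments, the contrast with more than 1 array a side. The platelet arrays that led to the choice of these genes are also the platelet side here, so the differences and p-values below are not independent of that choice. limma was fitted to 18875 genes whose mean reached 4.23, which 9 of the 10 lung genes did and Scgb3a2 did not. Calls needed a difference of 1.5-fold or more and a p, adjusted by Benjamini-Hochberg over these genes, no higher than 0.05. By that rule 16.2% of all genes tested were higher and 25.7% lower in platelets. Sftpc passed that rule as higher, at 6.96 ± 0.84 (SD over 3 arrays that differ in treatment) in platelets and 5.10 ± 0.08 in progenitors. Its difference was 1.86 with SE 0.30, given as a description with no p, since the platelet EV arrays on which it was picked make up much of it. On the PBS arrays alone, a comparison added after the data were seen, Sftpc was higher in platelets by 0.87, at 6.05 against 5.18. The other 9 genes were lower in platelets on the PBS arrays, by -0.24 to -0.95. The median over all probes was also lower on the platelet PBS array, at 4.0 against 4.38, so nothing is read from these signs.

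As deposited, 4 lung genes were called lower in platelets. Napsa differed by -0.77 (SE 0.08, limma adjusted p = 0.000198) and Sftpb by -0.72 (SE 0.11, limma adjusted p = 0.000754). Ager differed by -0.63 (SE 0.11) and Cldn18 by -0.61 (SE 0.09), with limma adjusted p of 0.00152 and 0.000763. The 3 platelet arrays did not overlap the 3 progenitor arrays for 5 of the 9 lung genes tested, beside 78.4% of all genes tested. These were the 4 genes called lower and Sftpc, which was higher in platelets. Scgb1a1 (-0.58, SE 0.13, limma adjusted p = 0.00571) and Scgb3a1 (-0.48, SE 0.14, limma adjusted p = 0.0189) missed the fold. Sftpa1 and Sftpd differed by -0.16 each (limma adjusted p = 0.153 and 0.179), and both turned to 0.19 or more under the other scalings. Scgb3a2, outside the test, averaged 3.99 ± 0.50 in platelets and 3.63 ± 0.22 in progenitors (SD over 3 arrays that differ in treatment).

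The lower calls rested on the scaling of the arrays. The median difference of all genes tested was -0.26 as deposited, 0.05 after quantile normalization, 0.11 with arrays centred on their own medians and 0.45 when 1083 olfactory receptor genes served as the centre. Higher against lower calls over all genes numbered 3063 and 4854 as deposited, and 4141 and 2282, 4673 and 1911, and 7609 and 1033 under these other scalings. In each of these other scalings 0 of the lung genes were called lower in platelets. Sftpc stayed higher in platelets, by 2.05 to 2.57. The platelet EV arrays on which it was picked are in each of these fits, so nothing is read from that. With olfactory receptor genes as the centre, Ager and Cldn18 turned to 0.09 and 0.11, and Scgb1a1 and Scgb3a1, which were not called, to 0.14 and 0.24. Without the platelet or the progenitor PBS array Ager was not called (-0.57), and without either CTC41.5G-EVs array neither Ager (-0.58) nor Cldn18 (-0.55) was. Scgb1a1 was called lower without either CTC41-EVs array (-0.68) or either CTC41.5G-EVs array (-0.67), and Scgb3a1 without the latter (-0.60).

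**Figure D4:**
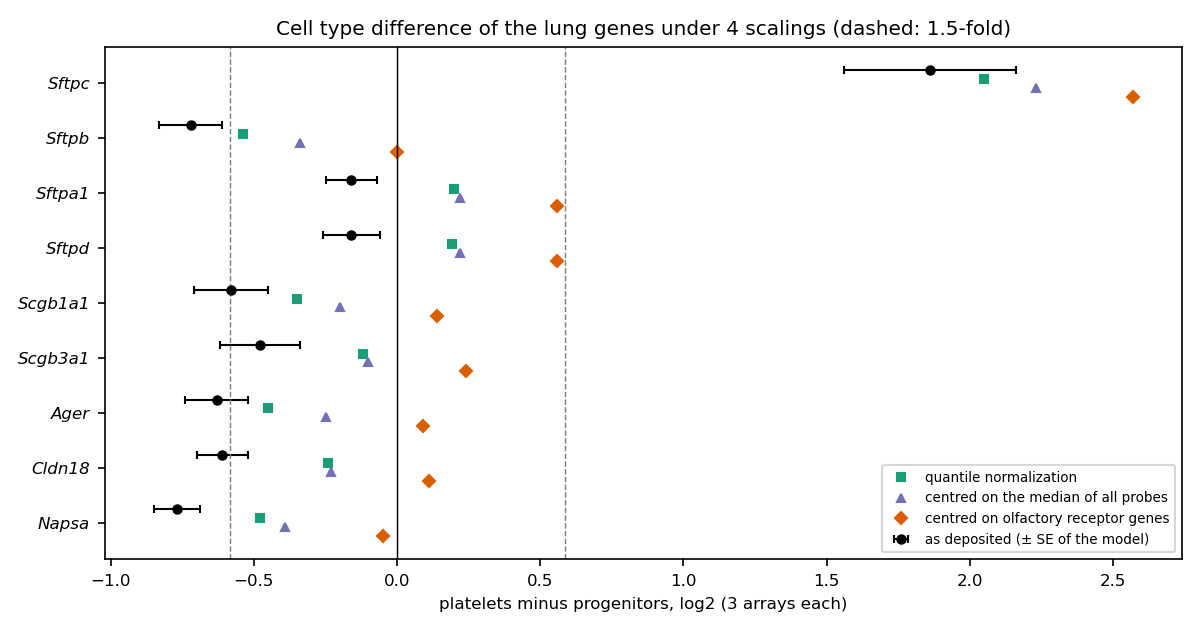
Difference of platelets from progenitors in log2 signal (horizontal axis, 3 arrays each) for the 9 lung genes tested (vertical axis), as deposited with the SE of the limma model (black circles) and under 3 other scalings; dashed lines mark 1.5-fold. Sftpc lies between 1.86 and 2.57 in all 4, while Sftpb runs from -0.72 to 0.

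The 10 genes with the profile most like that of Sftpc, the lung gene with the widest range over the arrays (2.70), were sought among 13993 other genes that reached 5.07 on some array. Likeness was the Euclidean distance between log2 profiles over the 6 arrays, each centred on its mean. The nearest was Cox6b2, a cytochrome c oxidase subunit, at a distance of 0.78, with 7.95, 8.35 and 8.56 in platelets and 6.68, 6.59 and 6.33 in progenitors. Next came Gm340 (0.80), Litaf (0.84), Uty, a Y-linked gene (0.85), and the integrin gene Itgal (0.86). Rn7s1 and Rn7s2, which encode the RNA of the signal recognition particle and share 1 set of values, lay at 0.87, as did the growth factor gene Tgfb1. Pign (0.92) and the potassium channel gene Kcna3 (0.93) completed the 10. Of the other lung genes the closest was Sftpa1, which lay at 2.62 and ranked 4999th. Sftpd, Scgb3a2 and Cldn18 stayed under 5.07 on all arrays and were not searched.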

How the data were processed

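The 6 arrays are Clariom D Mouse arrays of pooled RNA, 1 per group. The authors deposited log2 signals, from 0.23 to 14.06, used here as deposited with no pseudocount. Expression Console 1.4.1.46 by Affymetrix made them, per the submitters' processing notes. MAS5.0 is named in the series text too, so the authors' scaling between arrays is unclear. No genome build was stated for the probes. Precision is limited by the number of arrays.

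Of 72688 probes, 30604 named 1 gene symbol, 2146 several and 39938 none. Only the first kind was used, with 827 symbols updated through RefSeq Entrez identifiers (22818 probes matched). Of 30142 genes, 355 had several probes and took the one with the highest mean. The lung genes, the 20 gene lists and the alternatives were chosen with earlier results of these data known.

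Within a cell type, 1 array was set against 1 with no test, at 1.5-fold (2-fold as an alternative), without a floor and with one at the 75th percentile of all probes, 5.07. Cell types were compared with limma 3.58.1 in R 4.3.3, with additive terms for cell type and treatment and an intensity trend on 2 residual degrees of freedom. The fit was tested on simulated data that held no difference in scaling between the cell types. That test therefore cannot bear on how the calls depend on scaling. Named genes were the 10 lung genes, other list members past 1.5-fold and at the floor (at most 4 a list), and the 10 nearest profiles; members given as values to describe a list were added after these were seen. Nothing shows that pools were replicates of a treatment, so p-values measure the spread between these arrays. The PBS arrays alone were added as a comparison after the data were seen. Alternatives were quantile normalization, 2 centrings, probe means, other floors, no treatment term, no trend and leaving out each array.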

Additional observations from a re-analysis of the deposited data

How the results depend on the processing

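In each cell type, the differences of the 10 lung genes between EV and PBS arrays, and between the EV arrays, were read again under the other scalings and with probe means. Probe choice could not change them, because each of these genes had a single probe. Centring shifts all genes of an array by the same amount, so only quantile normalization could move genes separately. Of 240 values, counted over all these settings, 239 moved by less than the gene's residual SD. That count is therefore largely fixed by the settings, and nothing is read from it. The 1 value that moved further was Sftpb with CTC41.5G-EVs in progenitors, from -0.01 to -0.14 after quantile normalization. Counts past 1.5-fold depended on the floor. With CTC41-EVs in platelets the count of higher lung genes was 1, and 2 without a floor or with one at the 50th percentile. With CTC41.5G-EVs it was 2, and 4 without a floor and 1 with one at the 90th percentile. Between the EV arrays of platelets it was 1, and 0 after quantile normalization or at 2-fold. Of 168 medians of other lists in platelets, 22 moved by more than the median residual SD of the list's genes, most of them with a floor that left few genes.

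Between cell types, the 4 genes called lower in platelets became 0 under quantile normalization, and also when each array was centred on the median of all probes or on olfactory receptor genes. In the last setting Ager reversed to 0.09 and Cldn18 to 0.11. Leaving out 1 array gave 3 to 5 lower calls. Sftpc was higher in platelets by 1.44 to 2.35, with at least 1 platelet EV array on which it was picked in each fit, so this is a description. With the treatment term, leaving out an array also removes its partner of the other cell type from the contrast, leaving 1 residual degree of freedom. The cell type fit pairs platelets and progenitors by treatment through its treatment term, and without that term the count of lower calls was also 4. The labels carry no replicate numbers, so a replicate number could not serve as a block.

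On the PBS arrays alone, chosen after seeing the data and with 1 array against 1, the difference of Sftpc moved from 1.86 to 0.87.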

Other observations

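Gene families were read by symbol after the data were seen, to place the airway genes among their relatives. Of 27 secretoglobin genes on the arrays, the 3 described above were past 1.5-fold higher in platelets with CTC41.5G-EVs and the other 24 were not, at -0.33 to 0.47 with a median of 0.08, where 1.86% of all genes were past it. In progenitors with CTC41.5G-EVs none of the 3 was past the fold and 2 of the other 24 were higher past it, Scgb1b3 (0.74) and Scgb2b6 (0.61), where 3.20% of all genes were. With CTC41-EVs 1 of these 24 was higher past the fold in platelets and 1 lower, at -0.69 to 0.59, beside 2.0% and 1.74% of all genes. Of 14 genes of the BPI fold family, Bpifa1 and Bpifb1 were past it with CTC41.5G-EVs and the other 12 lay between -0.22 and 0.22. The other 3 genes of the Reg3 family, which encodes lectins, lay between 0.00 and 0.12 there, beside 0.65 for Reg3g. Probes of near-identical family members cannot be assumed to be specific, and each value is 1 array against 1. By the mean of the 3 platelet arrays, 3 of 27 secretoglobin, 0 of 14 BPI fold and 0 of 4 Reg3 genes reached 5.07. The 3 secretoglobins were picked on these contrasts, and Bpifa1, Bpifb1 and Reg3g were named after their values were seen. Nothing is therefore read from how they differ from their relatives.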
